A study of Mus musculus with 6 samples.

Results

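This section describes 10 genes of the transforming growth factor beta (TGF-beta) pathway in mouse CD4+ T cells: the feedback inhibitors Smad7, Skil, Pmepa1, Ldlrad4 and Ski, and beside them the signal carrier Smad3, the receptors Tgfbr1 and Tgfbr2 and the ligands Tgfb1 and Tgfb3. They are 10 of 22180 genes measured. A gene's probe sets were those that the platform annotation gives that symbol alone, and among them 1 was selected on the highest mean log2 level over the 6 arrays. Each of the 10 had 1 such probe set, so the measured level decided nothing here. The names themselves were proposed with earlier results of these data known, the comparison of PlGFCM with ConCM included, so counts over these genes are descriptions of them and nothing more is read from such a count.

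CD4+ T cells were isolated from mouse spleen with magnetic beads and kept in RPMI medium with fetal bovine serum, and every group was stimulated for 12 hours with antibodies to CD3 and CD28 at 1 µg/ml. The PlGFCM cells received medium conditioned by clones of HEK-293, a human embryonic kidney line, that overexpress the PlGF2 form of placental growth factor, a ligand of the VEGF family. The IL6_ConCM cells received control conditioned medium with IL-6 at 20 ng/ml, and the ConCM cells received control conditioned medium alone. Each group held 2 replicate samples on Affymetrix whole-transcript arrays, with a log2 level per probe set. Whether replicates came from separate mice or cultures is not given, nor are strain, sex and age. The spread behind each p-value is thus that between these samples and may be technical. The 2 PlGFCM samples did differ in the sex-linked transcript Xist (described below).

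TGF-beta ligands are secreted in a latent form and, once freed, bind Tgfbr2, which recruits and activates Tgfbr1. Tgfbr1 then phosphorylates Smad3 and its relative Smad2, which enter the nucleus with Smad4 and switch genes on or off. Inhibitors hold the pathway in check, and some of them are among the genes switched on. Smad7 occupies the receptor, and Pmepa1 and Ldlrad4 are membrane proteins that keep SMADs from it. Skil and Ski are nuclear repressors that bind SMADs. In CD4+ T cells TGF-beta restrains activation and takes part in the formation of regulatory T cells and, together with IL-6, of Th17 cells.

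The RefSeq promoter table held 5 of the 10 genes, and Ski was the feedback inhibitor among them. Its window, from 250 bases before the start site to 50 after it, is shown with that of Hamp, the hepcidin gene. Hamp, listed here with genes that answer to the related BMP branch, was the 1 gene of the wider pathway lists that rose. It was also higher in IL6_ConCM than in ConCM, though without passing the test (both described below). Whether BMP signals changed Hamp was not tested. Capitals mark the letters GGCGCC and CAGAC (read as GTCTG on the other strand), which are short sequences that SMADs are known to bind. The windows are chr4:155222486-155222785 for Ski and chr7:30943980-30944279 for Hamp, both on the minus strand of GRCm38.p6.
Ski: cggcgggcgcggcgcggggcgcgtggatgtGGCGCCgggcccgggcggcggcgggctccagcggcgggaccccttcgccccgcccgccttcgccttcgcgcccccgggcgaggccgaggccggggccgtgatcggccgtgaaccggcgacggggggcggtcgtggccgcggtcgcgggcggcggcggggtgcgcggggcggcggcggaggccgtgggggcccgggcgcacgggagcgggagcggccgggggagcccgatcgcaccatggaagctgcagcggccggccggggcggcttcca
Hamp: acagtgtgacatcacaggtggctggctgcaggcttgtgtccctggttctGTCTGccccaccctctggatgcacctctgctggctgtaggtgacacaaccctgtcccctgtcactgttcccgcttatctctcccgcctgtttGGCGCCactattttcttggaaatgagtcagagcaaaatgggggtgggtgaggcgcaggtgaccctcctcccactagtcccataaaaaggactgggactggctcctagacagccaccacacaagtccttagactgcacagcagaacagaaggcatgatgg
Ski held GGCGCC 1 time and CAGAC 0 times, and Hamp held each 1 time. Tgfbr1 had 1 window with GGCGCC and another with CAGAC, and Tgfbr2 held CAGAC 1 time. Smad3 and Tgfb1 held neither. Of all 32851 promoter windows in the table, 11.9% held GGCGCC and 49.6% held CAGAC. The palindrome GTCTAGAC, held by 0.213% of all windows, was in none of the windows of Ski, Hamp, Smad3, Tgfb1, Tgfbr1 and Tgfbr2. These matches describe letters and show no binding, and sites of other factors were not searched.

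One array stood apart before any comparison. PlGFCM replicate 2 had a log2 level of 8.38 for Xist, the transcript of the inactive X chromosome, and PlGFCM replicate 1 had 3.58, against 3.58 to 3.94 on the 4 IL6_ConCM and ConCM arrays. The same array held the lowest levels of 3 genes on the Y chromosome, Uty at 7.50, Kdm5d at 7.07 and Eif2s3y at 8.59. Whether this array held RNA from cells of both sexes was not tested. The calls in PlGFCM, the list medians and the averages over the inhibitors are therefore also given without it. Array medians lay between 5.47 and 5.51. T cell markers were bright on every array, with Cd3e from 11.84 to 12.17 and Cd4 from 11.13 to 11.40. Of the CD8 and NK cell markers, Cd8b1 lay from 7.81 to 8.31, Cd8a from 5.475 to 6.255, and Ncr1 and Klrb1c lower. Of the stromal and endothelial markers, Pecam1 lay from 9.387 to 9.637 and the others below 5.91.

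PlGFCM was first set against ConCM, the comparison of medium from PlGF2-overexpressing clones with control conditioned medium. Any other difference between these media cannot be told apart from PlGF2 in this design. The feedback inhibitors were higher in PlGFCM, by 1.28-fold to 1.67-fold, and 4 of the 5 passed the test. A gene passed where the adjusted p of limma, a linear model with moderated variances fitted to all 6 arrays, was under 0.05 over all 22180 genes (Benjamini-Hochberg). Of all genes 0.433% passed in either direction and 0.352% rose. None of Smad3, Tgfbr1, Tgfbr2, Tgfb1 and Tgfb3 passed. At an unadjusted p under 0.05, 8 of the 10 genes were higher and none lower, where 4.19% of all genes were higher and 4.54% lower.

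Smad7, which blocks the activated receptor and brings ubiquitin ligases to it, had log2 levels of 8.41 and 8.35 on the PlGFCM arrays, 8.003 and 8.105 on the IL6_ConCM arrays and 7.76 and 7.82 on the ConCM arrays. The 3 groups did not overlap, with PlGFCM highest and IL6_ConCM in the middle. Smad7 rose in PlGFCM against ConCM by 0.59 ± 0.09 (SE) on the log2 scale (1.51-fold, limma adjusted p = 0.0176). Skil, which encodes the SMAD corepressor SnoN, was at 8.92 and 9.01 in PlGFCM, at 8.39 and 8.44 in IL6_ConCM and at 8.42 and 8.42 in ConCM. Only the PlGFCM arrays were thus high for Skil, while the means of IL6_ConCM and ConCM were both 8.42. Skil rose in PlGFCM against ConCM by 0.55 ± 0.08 (SE, 1.46-fold, limma adjusted p = 0.0168).

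Pmepa1, a membrane protein that sequesters Smad2 and Smad3, was at 8.84 and 8.91 in PlGFCM, at 8.44 and 8.27 in IL6_ConCM and at 8.28 and 8.09 in ConCM. Both PlGFCM arrays lay above the other 4, and the IL6_ConCM and ConCM arrays overlapped. Pmepa1 rose in PlGFCM against ConCM by 0.69 ± 0.10 (SE, 1.61-fold, limma adjusted p = 0.0135). Ldlrad4, a relative of Pmepa1 with the same kind of action, was at 8.46 and 8.36 in PlGFCM, at 7.73 and 8.02 in IL6_ConCM and at 7.51 and 7.83 in ConCM. Its replicates were the farthest apart of the 5 inhibitors in ConCM, at an SD of 0.23 (n = 2), and the PlGFCM arrays still lay above all others. Ldlrad4 rose in PlGFCM against ConCM by 0.74 ± 0.13 (SE, 1.67-fold, limma adjusted p = 0.0311).

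Ski, the corepressor related to Skil, was at 8.81 and 8.82 in PlGFCM. It was at 8.409 and 8.425 in IL6_ConCM and at 8.425 and 8.495 in ConCM. Its PlGFCM arrays were also above the other 4. The difference from ConCM was 0.36 ± 0.08 (SE), 1.28-fold, and did not pass (limma adjusted p = 0.0974). All 5 inhibitors were thus without overlap between PlGFCM and ConCM, where 17.3% of all genes were higher without overlap. So were 4 of the other 5 genes (Smad3, Tgfbr2, Tgfb1 and Tgfb3), so this trait does not set the inhibitors apart. In the plot of levels by array the inhibitors fill the upper row.

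**Figure D1:**
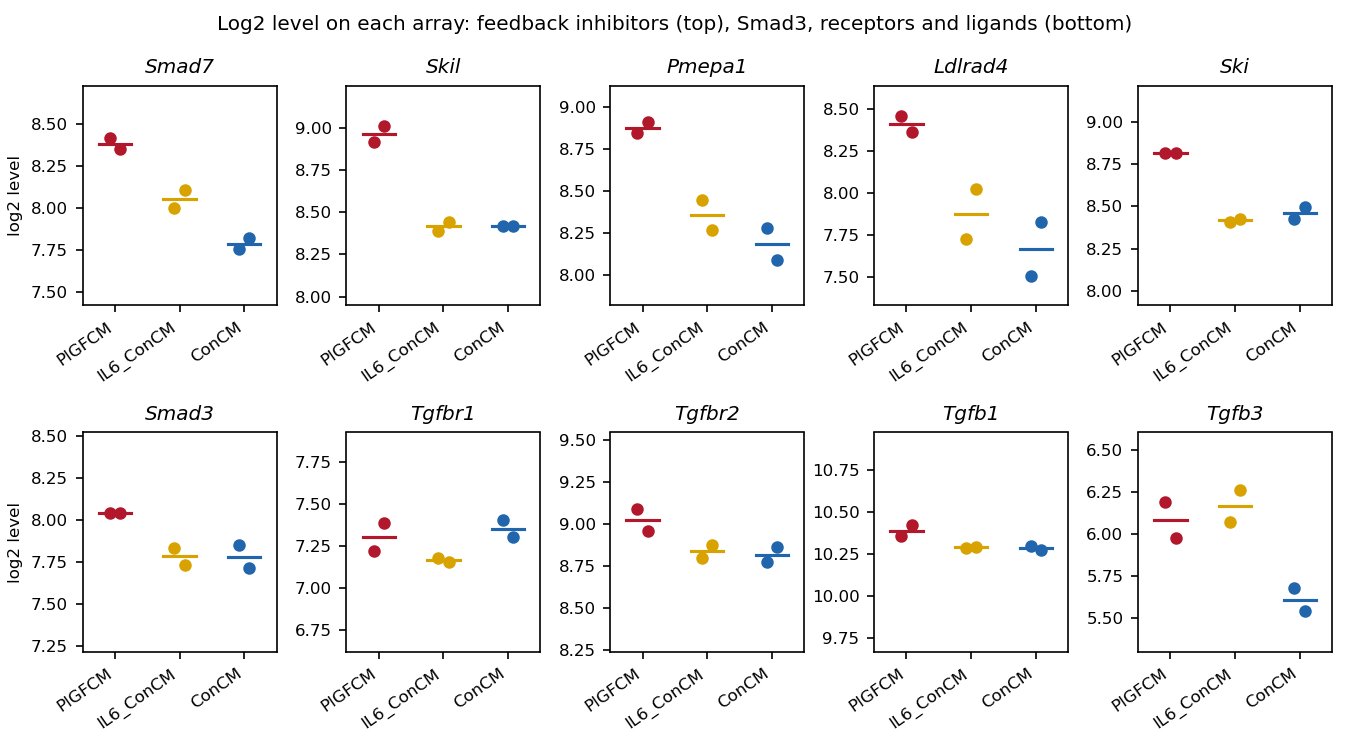
Log2 level (vertical axis, 1.3 log2 units in every panel) of the 10 genes on each array, with 2 points and a bar for the mean in PlGFCM, IL6_ConCM and ConCM. The PlGFCM points lie above all others for the 5 feedback inhibitors in the upper row. In the lower row this also holds for Smad3, Tgfbr2 and Tgfb1, while Tgfb3 is lowest in ConCM alone.

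These calls rest on few arrays. When 1 of the 4 arrays compared was left out, none of the 4 genes passed without PlGFCM replicate 1, PlGFCM replicate 2 or ConCM replicate 2, and without ConCM replicate 1 Pmepa1 alone did (limma adjusted p = 0.0198). The log2 changes without PlGFCM replicate 2 were 0.62 for Smad7, 0.50 for Skil, 0.66 for Pmepa1 and 0.79 for Ldlrad4, with limma adjusted p from 0.132 to 0.197. All 4 also missed the threshold when the variances were moderated without an intensity trend, where limma adjusted p was 0.239 for Smad7, Skil and Pmepa1 and 0.308 for Ldlrad4.

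The genes that carry the signal follow by role, none of which passed. Smad3, the transcription factor that the receptor activates, was at 8.04 and 8.04 in PlGFCM, at 7.84 and 7.74 in IL6_ConCM and at 7.85 and 7.71 in ConCM. Both PlGFCM arrays were the highest of the 6, and the difference from ConCM of 0.26 ± 0.09 (SE) did not pass (limma adjusted p = 0.398). Tgfbr2, the receptor that binds the ligand, was at 9.09 and 8.96 in PlGFCM, at 8.80 and 8.88 in IL6_ConCM and at 8.77 and 8.86 in ConCM. It was also highest on the PlGFCM arrays, with a difference from ConCM of 0.20 ± 0.08 (SE, limma adjusted p = 0.494). Tgfbr1, the kinase that phosphorylates the SMADs, was at 7.22 and 7.38 in PlGFCM, at 7.18 and 7.15 in IL6_ConCM and at 7.40 and 7.30 in ConCM. Its PlGFCM and ConCM arrays overlapped, and the 95% interval of the difference, -0.27 to 0.18, leaves out changes as large as those of the 4 inhibitors that rose.

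Tgfb1, the main TGF-beta ligand of T cells, was at 10.36 and 10.42 in PlGFCM, at 10.29 and 10.30 in IL6_ConCM and at 10.30 and 10.27 in ConCM. All 6 values lay within 0.15 log2 units, and the difference of PlGFCM from ConCM was 0.10 (95% interval -0.03 to 0.24, limma adjusted p = 0.690). Tgfb3, a ligand that Th17 cells are also known to make, showed another pattern, at 6.19 and 5.98 in PlGFCM, 6.07 and 6.26 in IL6_ConCM and 5.68 and 5.54 in ConCM. Both treated groups lay above ConCM and overlapped each other. The difference from ConCM was 0.48 ± 0.13 (SE) for PlGFCM and 0.56 ± 0.13 (SE) for IL6_ConCM, and neither passed (limma adjusted p = 0.231 and 0.240).

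The effect of added IL-6 was read from IL6_ConCM against ConCM, with the same ConCM arrays as in the comparison above. None of the 10 genes passed with limma, where 0.113% of all genes did. At an unadjusted p under 0.05, 2 of the 10 (Smad7 and Tgfb3) were higher and none lower, where 2.62% of all genes were higher and 3% lower. Smad7 differed by 0.26 ± 0.09 (SE, limma adjusted p = 0.649). Without overlap, 2 of the 10 (Smad7 and Tgfb3) were higher and 2 (Ski and Tgfbr1) lower. For Ski the groups all but touched, with IL6_ConCM replicate 2 and ConCM replicate 1 both at 8.425. Of all 22180 genes 3484 were higher without overlap and 4078 lower. The difference was 0.17 for Pmepa1 (95% interval -0.04 to 0.39), 0.21 for Ldlrad4 (-0.07 to 0.48) and -0.04 for Ski (-0.22 to 0.13). For Skil the interval was -0.18 to 0.18, which does not reach 0.55, its change in PlGFCM. Tgfbr1 was lower on both IL6_ConCM arrays, at -0.19 (95% interval -0.41 to 0.04), and Smad3, Tgfbr2 and Tgfb1 differed by 0.02 or less, with 95% intervals that reached at most 0.21 in either direction.

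PlGFCM was also set against IL6_ConCM directly, which tests the difference between the treatments, with the PlGFCM arrays used above. All 5 feedback inhibitors were higher in PlGFCM without overlap, where 15.2% of all genes were. So were 4 of the other 5 genes, Smad3, Tgfbr1, Tgfbr2 and Tgfb1. None of the 10 passed with limma, where 0.0316% of all genes did. The log2 differences were 0.55 for Skil (limma adjusted p = 0.0654), 0.54 for Ldlrad4 (0.437), 0.52 for Pmepa1 (0.199), 0.40 for Ski (0.209) and 0.33 for Smad7 (0.604). The unadjusted p was under 0.05 for 7 of the 10 genes, the 5 inhibitors, Smad3 at 0.26 and Tgfbr2 at 0.18, all of them higher, where 2.56% of all genes were higher and 1.81% lower. Skil passed when dim genes were left out before the test, with a limma adjusted p of 0.0368 for genes at or above the median level. Tgfb3 differed by -0.08 (95% interval -0.37 to 0.21) and Tgfbr1 by 0.14 (-0.09 to 0.36). Without PlGFCM replicate 2 none of the 10 passed, the 5 inhibitors were higher with a median of 0.48, against 0.52 with it, and Tgfb3 was at 0.03.

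**Figure D2:**
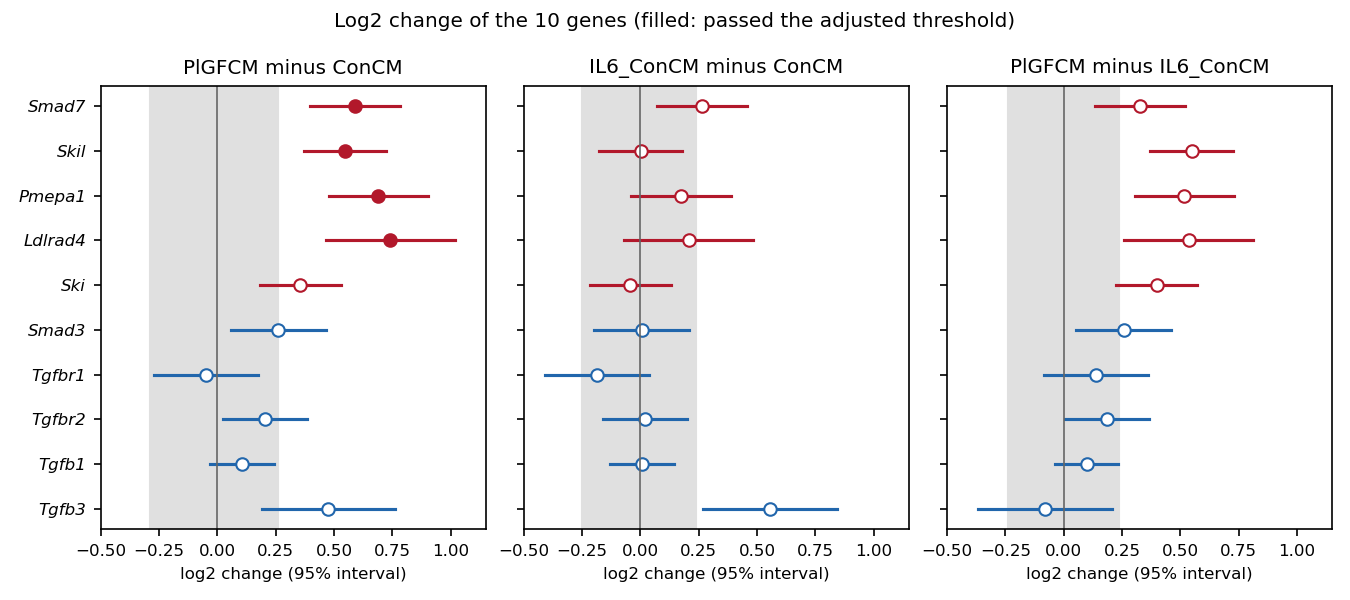
Log2 change (horizontal axis) of each gene in the 3 comparisons, with bars for the 95% interval of limma; red marks feedback inhibitors, blue marks Smad3, receptors and ligands, filled points passed the adjusted threshold, and the grey band spans the 5th to 95th percentile of all 22180 genes. Smad7, Skil, Pmepa1 and Ldlrad4 are filled in PlGFCM minus ConCM, and no point is filled in the other comparisons.

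To set the inhibitors against the other 5 genes, each gene's mean over the 6 arrays was subtracted and the deviations were averaged per array. The inhibitors averaged 0.35 and 0.35 on the PlGFCM arrays, -0.14 and -0.09 on the IL6_ConCM arrays and -0.26 and -0.21 on the ConCM arrays. Smad3, the receptors and the ligands together averaged 0.12 and 0.09 in PlGFCM, -0.03 and 0.0016 in IL6_ConCM and -0.06 and -0.12 in ConCM. Each gene's deviations sum to 0 over the 6 arrays, so only differences between groups can be read from them. The inhibitors' mean log2 change exceeded that of the other 5 genes by 0.39 in PlGFCM minus ConCM. The excess was 0.35 in PlGFCM minus IL6_ConCM and 0.04 in IL6_ConCM minus ConCM. Without PlGFCM replicate 2 it was 0.37 in PlGFCM minus ConCM and 0.33 in PlGFCM minus IL6_ConCM. On single arrays the inhibitors' average minus that of the other 5 genes was -0.20 and -0.08 in ConCM. The SD of this array value within groups, pooled over groups, was 0.05. It is not the spread of the differences between groups. No p is given for these averages, since the genes were chosen with results known.

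**Figure D3:**
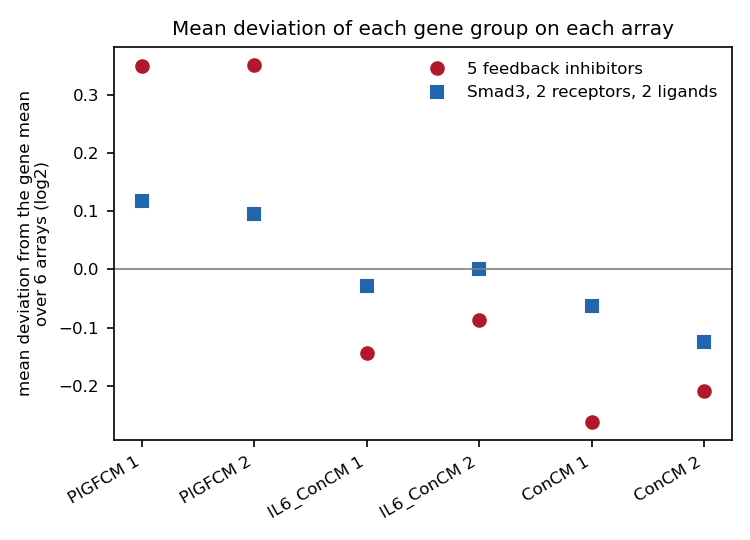
Mean deviation from each gene's mean over the 6 arrays (vertical axis, log2 units) on each array, for the 5 feedback inhibitors (red circles) and for Smad3, 2 receptors and 2 ligands (blue squares). The circles lie at 0.35 on both PlGFCM arrays and at -0.26 and -0.21 on the ConCM arrays, and all squares lie between -0.12 and 0.12.

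The rest of the pathway was read from 8 lists by role, with 81 of 82 genes measured. In PlGFCM against ConCM 1 of the 81 rose, none fell and 80 did not pass with limma, and 9 were higher and 1 lower at an unadjusted p under 0.05. Of all genes 0.352% rose, and at that p 4.19% were higher and 4.54% lower. The 5 feedback inhibitors were named with this comparison known, so their median beside those of the lists is a description and tests nothing. The median log2 change of the 81 genes was 0.03, beside -0.01 for all genes and 0.59 for the 5 feedback inhibitors. Without PlGFCM replicate 2 it was 0.01 for the 81 genes, and the medians of the single lists lay between -0.13 and 0.20, with the receptors at 0.20 and ligand storage and activation at -0.13. Of 7 other inhibitors of the pathway none passed, and their median was 0.06. Fkbp1a, which guards the resting receptor, was the 1 gene of the 7 with an unadjusted p under 0.05, at 0.19 (limma adjusted p = 0.428). Strap, which stabilizes Smad7 at the receptor, was at -0.15 (0.591), and the inhibitory Smad6, dim at means of 4.76 in PlGFCM and 4.70 in ConCM, at 0.06 (0.939). Of 9 ubiquitin enzymes that act on receptors and SMADs none passed, with a median of 0.07 and 1 gene, Smurf2, at an unadjusted p under 0.05 (log2 change 0.17, limma adjusted p = 0.537).

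Among 11 further receptors of the family none passed, 3 had an unadjusted p under 0.05 and the median was 0.11. These were the BMP receptor Bmpr2, at 8.84 and 8.79 in PlGFCM against 8.38 and 8.42 in ConCM (log2 change 0.41, limma adjusted p = 0.265), Acvrl1 at 0.35 (0.231) and Bmpr1a at 0.27 (0.471). Of 9 other SMADs and partners none passed and Smad1, a SMAD of the BMP branch, had an unadjusted p under 0.05 at 0.26 (limma adjusted p = 0.502). Of 12 genes for ligand storage and activation none passed, with a median of -0.08, and the integrin chain Itgav, part of the receptors that free latent TGF-beta, had an unadjusted p under 0.05 at 0.25 (0.334). None of 13 activin and BMP ligands and antagonists passed, with 0 at an unadjusted p under 0.05.

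Of 14 measured genes that TGF-beta is known to induce in various cells, none passed, the median was 0.08, and at an unadjusted p under 0.05 Junb, an AP-1 factor, was higher and Ccr8, a chemokine receptor, lower. Junb was at 0.24 (limma adjusted p = 0.417) and Ccr8 at -0.43 (0.179). Of 6 genes that answer to BMP, Hamp rose and the other 5 did not pass. Hamp, whose promoter letters are shown above, was at 7.91 and 7.52 in PlGFCM, 6.27 and 5.86 in IL6_ConCM and 5.41 and 5.13 in ConCM. Its PlGFCM arrays lay far above the rest, by 2.44 ± 0.17 (SE) against ConCM with a limma adjusted p of 9.6e-05, and it also passed without PlGFCM replicate 2 (0.0048). The Hamp probe set may also bind Hamp2, its near-identical neighbour, so the assignment is uncertain. Among the other 5 were Id4 at -0.33 (limma adjusted p = 0.665), Atoh8 at -0.16 (0.831) and Id2, a BMP responder that also marks effector T cells, at 0.09 (0.854), and the median of the 6 was -0.08.

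**Figure D4:**
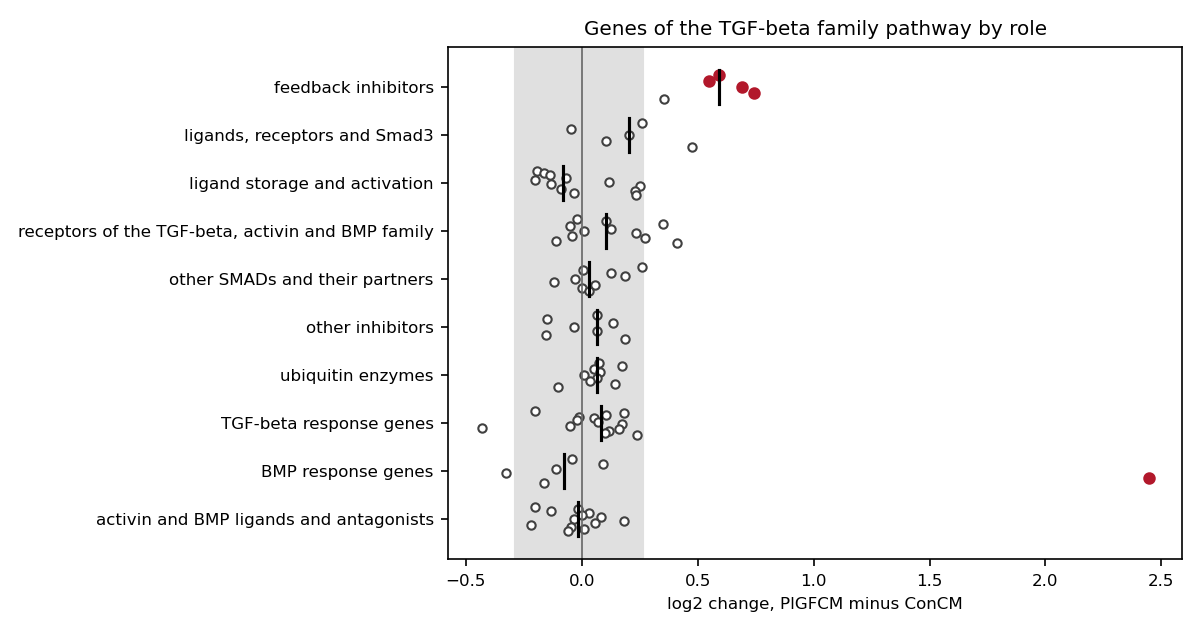
Log2 change in PlGFCM minus ConCM (horizontal axis) of the 10 genes and of the 81 measured genes of the 8 pathway lists; red points passed the adjusted threshold, open points did not, black bars are list medians, and the grey band spans the 5th to 95th percentile of all genes. The filled points are 4 feedback inhibitors and Hamp.

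In IL6_ConCM against ConCM none of the 81 genes passed with limma, and 3 were higher and 6 lower at an unadjusted p under 0.05, where 2.62% and 3% of all genes were. Higher were Hamp, with the largest change of the 81 at 0.79 (limma adjusted p = 0.153), Acvrl1 at 0.24 (0.806) and Fkbp1a at 0.20 (0.708). Nearest to the threshold were Ccr8, at 7.79 and 7.94 in IL6_ConCM against 8.46 and 8.59 in ConCM (log2 change -0.66, limma adjusted p = 0.0550), and Furin, a protease that processes the TGF-beta precursor, at 9.86 and 9.66 against 10.24 and 10.19 (-0.45, 0.0723). Among the lower genes were also Inhba, an activin subunit, at -0.47 (0.494), Tgfb2 at -0.43 (0.751) and Gadd45b, a stress-response gene, at -0.29 (0.300). Furin and Inhba were near their ConCM levels in PlGFCM, at -0.03 (0.952) and -0.02 (0.984). In PlGFCM against IL6_ConCM Hamp rose by 1.65 (limma adjusted p = 0.0067) and the other 80 genes did not pass, where 0.0316% of all genes passed. Hamp did not pass there without PlGFCM replicate 1 (0.0918), PlGFCM replicate 2 (0.120) or IL6_ConCM replicate 2 (0.0697). At an unadjusted p under 0.05, 7 of the 81 were higher and none lower, where 2.56% and 1.81% of all genes were, Furin at 0.42 and the latent TGF-beta binding integrin chain Itgb8 at 0.42 among them.

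Markers of other cells were read beside these values, since in bulk RNA more cells of a type and more RNA per cell cannot be told apart. Of all 22180 genes 10291 were higher in PlGFCM against ConCM in their means, and 4.19% were higher at an unadjusted p under 0.05. Regulatory T cell markers, of which Foxp3 lay between 10.68 and 11.08 on all arrays, were all higher in PlGFCM against ConCM in their means (4 of 4), none passed with limma and 1 was higher at an unadjusted p under 0.05. Their mean log2 level was 10.35 and 10.23 in PlGFCM against 10.07 and 10.25 in ConCM. Of 5 myeloid markers 3 were higher and none passed. Adgre1, which encodes F4/80, was higher at an unadjusted p under 0.05, at 5.79 and 5.68 in PlGFCM against 5.35 and 5.34 in ConCM, a difference of 0.38 (limma adjusted p = 0.335). The 5 markers had a mean level of 6.22 and 6.02 in PlGFCM against 5.994 and 6.004 in ConCM. Of 4 B cell markers 3 were higher and 1, Ms4a1, which encodes CD20, fell by 0.84 (limma adjusted p = 0.0125). It did not pass without PlGFCM replicate 2. Cd79b at 0.33 (0.493) and Pax5 at 0.31 (0.455) were higher at an unadjusted p under 0.05. The 4 markers had a mean level of 6.71 and 6.71 in PlGFCM against 6.69 and 6.72 in ConCM. Platelet markers, of cells that carry much TGF-beta, were dim, with Pf4 at 3.98 to 4.34 and Ppbp at 3.56 to 4.13 on all arrays, and their mean level was 4.73 and 4.93 in PlGFCM against 4.79 and 4.89 in ConCM. Without PlGFCM replicate 2 the median change was 0.21 over the regulatory T cell markers, 0.18 over the myeloid markers and 0.27 over the B cell markers, against 0.12, 0.10 and 0.26 with it. The part of these cells in the levels of the feedback inhibitors was not tested.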

How the data were processed

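RNA of 6 samples was measured on Affymetrix whole-transcript arrays. The table holds log2 levels as deposited by the authors. Transcriptome Analysis Console is the software that the submitters' processing notes name, and its version, the background correction, the normalization and the build were not given in the sources used. The levels were used unchanged. Precision is limited by the number of arrays.

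Of 41345 probe sets, 23521 had 1 symbol in the platform annotation, 1814 had several and were left out, and 16010 were unnamed here. Matching gene IDs to the RefSeq gene table changed 0 symbols. The brightest probe set per gene gave 22180 genes. Groups were taken from the labelled treatment. Limma version 3.58.1 in R version 4.3.3 fitted the 3 group means to all 6 arrays (lmFit, eBayes with an intensity trend, 3 residual degrees of freedom, median prior 8.14), and p-values were adjusted by Benjamini-Hochberg over all genes. An exact two-sided permutation test of 2 against 2 arrays cannot go below 0.333. On simulated data for PlGFCM minus ConCM with 200 of 22180 genes changed, 22.5% of the genes changed by 0.5 log2 units passed, as did 88% of the genes changed by 1, and false calls made up 4.08%.

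The members and lists were chosen with earlier results of these data known. All 10 members are named, and of each pathway list the genes that passed and up to 4 with the smallest p per comparison. T cell, CD8 and NK, B cell, myeloid, platelet, stromal and endothelial, regulatory T cell and sex-linked markers were read as checks: among 4 CD8 and NK and 4 stromal and endothelial markers none passed with limma in any comparison and 0 had an unadjusted p under 0.05. Alternatives were 2 normalizations, 2 filters on low levels, other uses of probe sets, variance models and arrays, array weights, a replicate block, another threshold and each array left out.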

Additional observations from a re-analysis of the deposited data

How the results depend on the processing

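For PlGFCM against ConCM the 4 inhibitors kept a positive log2 change under the 18 alternatives run for single genes, and Ski, Smad3, Tgfbr2, Tgfb1 and Tgfb3 did too. The number that passed was 4 as reported, 3 after quantile normalization (without Ldlrad4, limma adjusted p = 0.0582), 0 without an intensity trend, 0 when an unadjusted p under 0.05 and at least 2-fold change were required, and 0 when all 41345 probe sets were tested singly, an alternative added after the data were examined. It was 0 to 4 with 1 array left out. Over these 18, Smad7 and Skil passed in 12, Pmepa1 in 13 and Ldlrad4 in 11, with limma adjusted p from 0.0077 to 0.421. In PlGFCM against IL6_ConCM 1 of the 10 genes, Skil, passed under the filter at the median and 1 under that at the 25th percentile, against 0 as reported, and with 1 array left out 0 passed. In IL6_ConCM against ConCM 0 passed under every alternative run. The excess of the inhibitors over the other 5 genes ranged from 0.3285 to 0.4435 for PlGFCM minus ConCM and from -0.01777 to 0.09722 for IL6_ConCM minus ConCM with 1 array left out. Below the threshold, the sign of the change turned for Tgfbr1, Tgfb3, Skil, Smad3, Tgfbr2 and Tgfb1 in 14 cases, all within 0.07 of 0.

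The labels number replicates 1 and 2 in each group, but nothing says that a number marks a shared animal or day. Deviations of same-numbered arrays from their group means correlated across genes at -0.0386 to 0.111, so the arrays were not treated as paired. With a replicate block 4 of the 10 genes passed in PlGFCM against ConCM and 0 in the other comparisons, the excess of the inhibitors was the same as reported (0.386 for PlGFCM minus ConCM), and over all genes 62 passed there (96 as reported), 16 in IL6_ConCM against ConCM (25) and 5 in PlGFCM against IL6_ConCM (7). Counts over all genes in PlGFCM against ConCM were 174 at or above the median level, 6 without a trend, 20 by the 2-fold rule, 5 with all probe sets and 12 to 107 with 1 array left out. In IL6_ConCM against ConCM they were 53 under either filter, 1 without a trend, 15 by the 2-fold rule, 12 with the compared arrays alone, 47 with array weights, 0 with all probe sets by limma and 2 to 41 with 1 array left out. In PlGFCM against IL6_ConCM they were 0 without a trend, 0 with all probe sets and 0 to 5 with 1 array left out. The cause of these shifts was not tested. In simulated data 22.5% of changes of 0.5 log2 units passed. Over all genes smaller changes were thus mostly not detectable with 2 arrays a group. The rate was not given by level, so it may not hold for the 10 genes.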
